A study of Mus musculus with 21 samples.

Results

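The genes described are Sele, Vcam1, Icam1, Edn1 and Ednrb, which encode E-selectin, VCAM-1, ICAM-1, endothelin 1 and the endothelin B receptor, products best known from blood vessel walls. They were followed in mouse bone marrow-derived macrophages given lipopolysaccharide (LPS), a bacterial cell wall component, and are 5 of the 25067 genes counted. Each was taken by its symbol and by its transcript of highest mean count. The 5 were chosen by their function with earlier results of these data known, and Sele and Edn1 were selected on their log2 fold changes at 4 h of LPS, so their changes over time are given as a description with no test. Marrow came from male C57Bl6/J mice aged 6 to 12 weeks, either labelled as knockout (KO) for Nur77, the nuclear receptor encoded by Nr4a1, or wild type (WT). The cells had grown for 7 days in medium holding L929-conditioned medium and then received LPS at 100 ng/ml, for times of 0, 4 and 18 h. Each time had 3 labelled-KO libraries (numbers 2, 3 and 4) and 4 WT libraries (numbers 1 to 4), so 21 were made. For labelled KO the tag for genotype holds only the word cre, and the sources used here give neither the kind of knockout nor the cells it acts in. No label ties a number to a mouse of its own, so a p-value measures spread between libraries, which may be technical.

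E-selectin, VCAM-1 and ICAM-1 catch leukocytes on inflamed endothelium. E-selectin binds sugars on passing cells and slows them, and VCAM-1 and ICAM-1, members of the immunoglobulin family, then hold them through leukocyte integrins. ICAM-1 is also made by macrophages and VCAM-1 by marrow stromal cells and some macrophages. Endothelin 1 is a vasoconstrictor peptide, cut from its precursor by furin-type proteases and then by endothelin-converting enzymes, and the B receptor binds all endothelins. Transcription of Sele, Vcam1 and Icam1 is known to be driven by NF-kB, a factor that LPS activates.

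The promoters of Sele, Icam1 and Edn1 are shown because these genes rose together at 4 h of LPS yet the stretches shown held different motif matches. The sequences are RefSeq's on GRCm38.p6, from 250 bases before to 50 after the annotated start. The spans given below are of whole genes, and the windows of Sele and Ednrb lie wholly inside them. An entry was found for 4 of the 5 genes, Vcam1 being without one. Capitals mark matches on either strand. The motifs were an NF-kB consensus and a RelA consensus, which share letters with each other. The others were the AP-1 site TGANTCA, the Nur77 response element AAAGGTCA and TATAAA.
Sele, chr1:164047984-164048283, plus strand: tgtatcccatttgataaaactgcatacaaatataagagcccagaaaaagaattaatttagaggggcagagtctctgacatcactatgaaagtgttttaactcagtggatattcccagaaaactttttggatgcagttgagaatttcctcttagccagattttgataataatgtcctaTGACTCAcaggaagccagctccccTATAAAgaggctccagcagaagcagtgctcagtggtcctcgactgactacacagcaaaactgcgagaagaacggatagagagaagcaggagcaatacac
Icam1, chr9:21015690-21015989, plus strand: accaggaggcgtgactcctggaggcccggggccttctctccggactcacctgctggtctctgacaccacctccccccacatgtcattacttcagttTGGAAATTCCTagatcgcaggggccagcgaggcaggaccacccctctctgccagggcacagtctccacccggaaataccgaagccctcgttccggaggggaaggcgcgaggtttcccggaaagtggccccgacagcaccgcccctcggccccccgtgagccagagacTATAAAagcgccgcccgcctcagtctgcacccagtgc
Edn1, chr13:42301226-42301525, plus strand: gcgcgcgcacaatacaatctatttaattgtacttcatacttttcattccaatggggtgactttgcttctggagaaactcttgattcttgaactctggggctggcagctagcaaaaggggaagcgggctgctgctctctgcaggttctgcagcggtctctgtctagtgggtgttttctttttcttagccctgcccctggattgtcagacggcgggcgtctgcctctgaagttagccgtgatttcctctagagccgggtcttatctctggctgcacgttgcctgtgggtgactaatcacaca
The Sele window held TGACTCA at -73 and TATAAA at -49 from the annotated start. The Icam1 window held a pair of overlapping RelA matches, TGGAAATTCC at -154 and GGAAATTCCT at -153, and TATAAA at 14. None of the motifs was in the Edn1 window, and the Ednrb window (chr14:103843652-103843951, minus strand) held an NF-kB consensus match, GGAACACCCC at -80. Of 32851 mouse promoter windows of the same length, 8.46% held the NF-kB consensus, 8.38% the RelA consensus, 7.81% TGANTCA, 1.51% AAAGGTCA and 13.6% TATAAA. These are matches of letters only, on either strand, and motifs outside the windows were not searched.

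The counts kept for genes totalled 12298532 to 29646855 per library. Values below are in CPM, counts scaled to the library total after TMM scaling (trimmed mean of M-values), and all 5 genes passed the filter on low counts with 12529 genes. Nr4a1 did not mark the labelled-KO libraries out at every time. It averaged 12.3 ± 0.114 CPM in labelled KO (SD, n = 3) and 14.7 ± 1.27 CPM in WT (SD, n = 4) at 0 h, 0.871 ± 0.34 CPM in labelled KO and 3.11 ± 2.78 CPM in WT at 4 h, and 2.85 ± 0.698 CPM in labelled KO and 1.1 ± 0.159 CPM in WT at 18 h. Its log2 fold change was -0.25 at 0 h, -1.77 at 4 h and 1.35 at 18 h (adjusted p = 0.75, 0.04 and 0.023 in edgeR with Benjamini-Hochberg adjustment). WT number 1 at 4 h held 7.25 CPM of Nr4a1, the most of the 4, and the least of each of the 5 genes. Macrophage markers summed to 12542 to 23055 CPM over all libraries. Of 14 endothelial markers, 10 stayed below 1 CPM in every library, Tek, Tie1, Cldn5 and Sox17 among them, and Cldn5 had no count in 20 of 21 libraries. Kdr and Vwf were above that level in every library, and Flt1 and Cdh5 in some. Stromal markers summed to 44.4 to 988 CPM in labelled KO and 4.59 to 154 CPM in WT over the 3 times, and were highest in labelled-KO number 4 at each time. In bulk RNA, fewer cells of a type and less RNA per cell cannot be told apart.

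**Figure D1:**
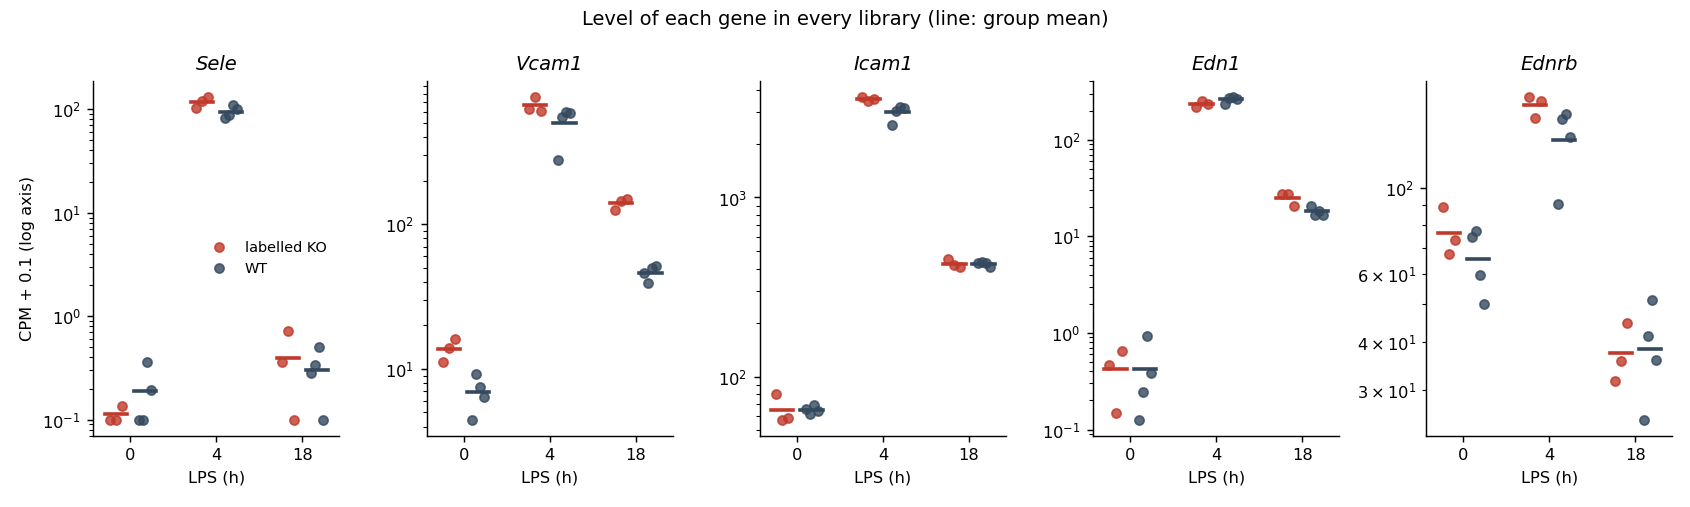
Level of each gene in every library, as CPM plus 0.1 on a log axis, by hours of LPS, with labelled KO to the left of WT at each time; points are libraries and lines are group means. Vcam1 at 18 h lay at 126 to 149 CPM in labelled KO and 38.9 to 51.0 CPM in WT, while Icam1 at 18 h overlapped between the genotypes.

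Sele, the E-selectin gene (NM_011345, chr1:164039614-164058487 on GRCm38.p6), was nearly silent without LPS, abundant at 4 h and nearly silent again at 18 h. In labelled-KO libraries 2, 3 and 4 it stood at 0, 0 and 0.037 CPM at 0 h, at 102, 121 and 131 CPM at 4 h, and at 0.261, 0.613 and 0 CPM at 18 h. In WT libraries 1 to 4 it stood at 0, 0, 0.263 and 0.0937 CPM at 0 h, at 81.9, 87.7, 110 and 101 CPM at 4 h, and at 0.183, 0.235, 0.402 and 0 CPM at 18 h. Every 4 h library was above every library of the other times, and the genotypes overlapped at each time. The 4 h groups held 4129 counts in labelled KO and 5715 in WT. The 0 h groups held 1 count in labelled KO and 8 in WT. The ratio of 4 h to 0 h was 7970 in labelled KO (95% counting interval 1430 to 315000) and 1300 in WT (658 to 3010), intervals that cover counting error only and that overlap. Single libraries decide these ratios. The 1 count at 0 h in labelled KO was in number 4. Without WT number 3 at 0 h the fitted log2 fold change in WT was 11.62 in place of 10.20. At 18 h 10 counts remained in labelled KO and 14 in WT, 0.247 ± 0.261% of the 4 h mean in labelled KO (SD, n = 3) and 0.216 ± 0.174% in WT (SD, n = 4). Between genotypes Sele passed at no time (Benjamini-Hochberg adjusted p from the quasi-likelihood test of edgeR), with a log2 fold change of 0.31 at 4 h (95% interval -0.073 to 0.7, adjusted p = 0.36). At the other times the depth allowed no closer statement than count ratios of labelled KO to WT of 0.207 (95% counting interval 0.00466 to 1.54) at 0 h and 1.39 (0.553 to 3.37) at 18 h. A long noncoding RNA gene, Gm51665, overlaps Sele and has no count of its own in the table.

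Vcam1 (NM_011693, chr3:116110020-116129688), the gene of the integrin ligand VCAM-1, was the 1 gene of the 5 that passed the edgeR test between genotypes, and it did so at 0 h as well as at 18 h. In labelled-KO libraries 2, 3 and 4 it stood at 11.1, 13.8 and 15.9 CPM at 0 h, at 630, 757 and 612 CPM at 4 h, and at 126, 144 and 149 CPM at 18 h. In WT libraries 1 to 4 it stood at 4.36, 9.15, 7.36 and 6.28 CPM at 0 h, at 280, 549, 595 and 587 CPM at 4 h, and at 45.7, 38.9, 49.5 and 51.0 CPM at 18 h. The labelled-KO libraries were above the WT libraries at each time with no overlap, by little at 4 h. The 6 groups ran, from high to low, labelled KO at 4 h, WT at 4 h, labelled KO at 18 h, WT at 18 h, labelled KO at 0 h and WT at 0 h, and no neighbours in that order overlapped.

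At 18 h Vcam1 averaged 140 ± 12 CPM in labelled KO (SD, n = 3) and 46.3 ± 5.42 CPM in WT (SD, n = 4), a fold of 3.03. The log2 fold change was 1.60 ± 0.21 (SE; 95% interval 1.158 to 2.04; adjusted p = 1.2e-05 in edgeR with Benjamini-Hochberg adjustment). Vcam1 was the 1 of the 5 genes called in this comparison, in which 32.2% of all genes tested were called and 16.6% were higher in labelled KO. Over 19 other settings the log2 fold change was 1.44 to 1.67, and Vcam1 passed in each of them. Macrophage markers summed at 18 h to 12542 to 13103 CPM in labelled KO and 13386 to 14817 CPM in WT. Of 8 tested, 2 were higher and 2 lower in labelled KO. Some markers of other cell types were higher in labelled KO. At 18 h stromal markers summed to 50.1 to 988 CPM in labelled KO and 13.8 to 73.8 CPM in WT. Of those tested, 11 of 12 were higher. Neutrophil markers summed to 328 to 462 CPM in labelled KO and 190 to 277 CPM in WT, and 5 of 8 tested were higher. These sums include Lcn2, which LPS raised in WT from 1.53 CPM at 0 h to 43.3 CPM at 4 h. Of 13 neutrophil markers, 5 stayed below 1 CPM in every library. Dendritic cell markers summed to 17.3 to 23.8 CPM in labelled KO and 8.69 to 10.6 CPM in WT, and 3 of 4 tested were higher. Endothelial markers summed to 35.1 to 42.5 CPM in labelled KO and 26.0 to 33.8 CPM in WT, but none of the 4 tested passed. Labelled-KO numbers 2, 3 and 4 held 50.1, 226 and 988 CPM of stromal markers and 126, 144 and 149 CPM of Vcam1. WT numbers 1 to 4 held 27.8, 20.9, 73.8 and 13.8 CPM of stromal markers and 45.7, 38.9, 49.5 and 51.0 CPM of Vcam1. Both rose together over labelled KO, but not over WT. With the stromal mean as a covariate the log2 fold change was 1.53 (adjusted p = 0.00022 in edgeR with Benjamini-Hochberg adjustment), and without each group's library of highest stromal mean it was 1.58 (adjusted p = 0.00038 in edgeR). The part of stromal cells in the difference was not tested beyond these fits. That of the macrophage, neutrophil, dendritic and endothelial genes was not tested.

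**Figure D2:**
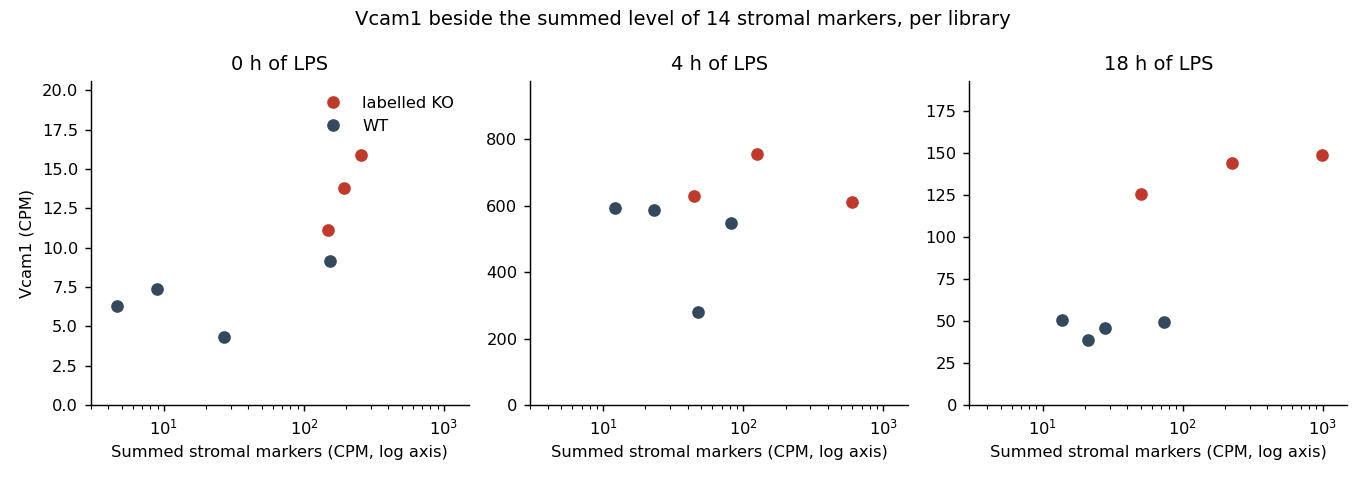
Vcam1 in CPM (vertical axis) against the summed CPM of 14 stromal markers (horizontal log axis) in each library, 1 panel per time of LPS, with labelled KO in red and WT in dark blue. At 18 h the labelled-KO libraries with 50.1, 226 and 988 CPM of stromal markers lay at 126, 144 and 149 CPM of Vcam1. The WT libraries lay at 13.8 to 73.8 CPM of stromal markers and 38.9 to 51.0 CPM of Vcam1.

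At 0 h Vcam1 averaged 13.6 ± 2.38 CPM in labelled KO (SD, n = 3) and 6.79 ± 2.0 CPM in WT (SD, n = 4). It was higher in labelled KO by 1.02 on the log2 scale (SE 0.24; 95% interval 0.525 to 1.514; adjusted p = 0.014 in edgeR with Benjamini-Hochberg adjustment) and again the 1 of the 5 genes called, against 3.98% of all genes. The call ended without labelled-KO number 3 (1.00) or number 4 (0.89), without WT number 1 (0.84), and with the stromal covariate (0.96). Neutrophil markers summed to 78.7 to 134 CPM in labelled KO and 28.3 to 48.9 CPM in WT at 0 h, with 7 of 8 tested higher. Stromal markers summed to 148, 193 and 256 CPM in labelled-KO numbers 2, 3 and 4, in the same order as Vcam1. In WT they summed to 4.59 to 154 CPM. Number 2, with 154 CPM, held the most Vcam1 of the WT libraries, while number 1, with 26.7 CPM, held the least. The part of stromal cells was not tested beyond the covariate and left-out fits, and that of neutrophil genes in the difference was not tested. At 4 h Vcam1 averaged 666 ± 79 CPM in labelled KO and 502 ± 150 CPM in WT. That difference did not pass (log2 fold change 0.41, 95% interval -0.02 to 0.835, adjusted p = 0.27 in edgeR with Benjamini-Hochberg adjustment), and without WT number 1 it was 0.21. None of the 5 genes was called between genotypes at 4 h by edgeR, DESeq2 or limma-voom, 1 had an unadjusted p under 0.05 in edgeR, and 5.56% of all genes were called.

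**Figure D3:**
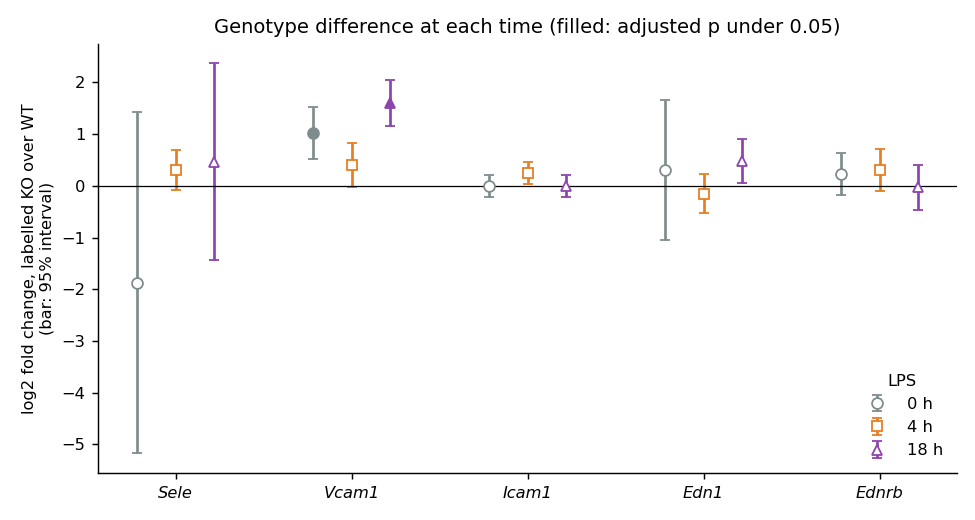
Log2 fold change of labelled KO over WT (vertical axis) for each gene at 0, 4 and 18 h of LPS; bars are 95% intervals and filled points have an adjusted p under 0.05 in edgeR. The filled points are Vcam1 at 0 h (1.02) and at 18 h (1.60), and the Icam1 points at 0 h and 18 h lie at 0 with short bars.

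LPS raised Vcam1 at 4 h by 5.61 on the log2 scale in labelled KO (adjusted p = 5.2e-14) and by 6.22 in WT (adjusted p = 9.9e-16), both in edgeR with Benjamini-Hochberg adjustment. Along with Icam1 and Ednrb it made 3 of 3 genes higher, the 3 that were not selected on their change in this comparison. Over all genes 33.5% were higher in labelled KO and 35.1% in WT. These 3 were still chosen with earlier results of these data known, so the count is a description. Endothelial markers moved at the same time. They summed to 53.7 to 64.5 CPM in labelled KO and 69.1 to 82.3 CPM in WT at 4 h, against 19.1 to 23.2 CPM in labelled KO and 18.3 to 30.1 CPM in WT at 0 h. Of 4 tested, 2 were higher and 1 lower at 4 h in labelled KO, and 3 were higher and 1 lower in WT. Kdr, a receptor gene for vascular endothelial growth factor, rose by 3.42 in labelled KO (adjusted p = 8.6e-14) and 4.01 in WT (adjusted p = 2.5e-16), both in edgeR. Vwf, the gene of von Willebrand factor, fell. The part of endothelial cells in the rise of the 5 genes was not tested.

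The fall of Vcam1 after 4 h differed between genotypes. From 4 h to 18 h the log2 fold change of Vcam1 was -2.25 in labelled KO (adjusted p = 2.4e-08) and -3.44 in WT (adjusted p = 4.3e-12; both in edgeR), with 21 ± 1.8% of the 4 h mean left in labelled KO (SD, n = 3) and 9.21 ± 1.08% in WT (SD, n = 4). The difference between these falls was 1.19 ± 0.297 on the log2 scale (SE; 95% interval 0.573 to 1.81; adjusted p = 0.013 in edgeR with Benjamini-Hochberg adjustment), a contrast added after the values were seen, in which 10.8% of all genes and 1 of the 5 were called. Without each group's library of highest stromal mean it was 1.08 and did not pass (adjusted p = 0.13 in edgeR). Against 0 h, the differences between genotypes in the response were -0.61 at 4 h (adjusted p = 0.54 in edgeR) and 0.58 at 18 h (adjusted p = 0.23). None of the 5 genes was called there by edgeR, DESeq2 or limma-voom, and none had an unadjusted p under 0.05 in edgeR, where 0.798% of all genes were called at 4 h and 17.6% at 18 h.

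Icam1 (NM_010493, chr9:21015940-21028814), the gene of the ligand for the integrins LFA-1 and Mac-1, was the most abundant of the 5 per length at 4 h and 18 h and overlapped between genotypes at 0 h and 18 h. In labelled-KO libraries 2, 3 and 4 it stood at 79.8, 57.3 and 58.7 CPM at 0 h, at 3634, 3459 and 3552 CPM at 4 h, and at 455, 419 and 409 CPM at 18 h. In WT libraries 1 to 4 it stood at 65.7, 61.9, 69.6 and 63.7 CPM at 0 h, at 2549, 3045, 3220 and 3147 CPM at 4 h, and at 433, 434, 431 and 407 CPM at 18 h. The times were fully apart, and at 4 h every labelled-KO library was above every WT library. The log2 fold change of labelled KO over WT had a 95% interval of -0.214 to 0.216 at 0 h and -0.209 to 0.215 at 18 h, so a difference as large as that of Vcam1 at 18 h lay outside both. At 4 h it was 0.25 (0.037 to 0.457), which did not pass (adjusted p = 0.16 in edgeR with Benjamini-Hochberg adjustment), and 0.18 without WT number 1. LPS raised Icam1 at 4 h by 5.76 on the log2 scale in labelled KO (adjusted p = 4.7e-19) and by 5.52 in WT (adjusted p = 3.8e-20), both in edgeR with Benjamini-Hochberg adjustment. At 18 h it was still above 0 h, by 2.71 in labelled KO (adjusted p = 1.1e-14) and 2.71 in WT (adjusted p = 1e-15, both in edgeR), as was Vcam1, by 3.36 in labelled KO (adjusted p = 1e-10) and 2.78 in WT (adjusted p = 3e-10, both in edgeR). Between 4 h and 18 h Icam1, Vcam1 and Ednrb all fell in both genotypes, where 32.1% of all genes fell in labelled KO and 34.5% in WT. The difference between genotypes in the fall of Icam1 was -0.24 (95% interval -0.543 to 0.055, adjusted p = 0.3 in edgeR).

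Edn1, the gene of the vasoconstrictor endothelin 1 (NM_010104, chr13:42301476-42307990), was near the limit of counting without LPS and abundant at 4 h. In labelled-KO libraries 2, 3 and 4 it stood at 0.371, 0.0493 and 0.556 CPM at 0 h, at 217, 252 and 235 CPM at 4 h, and at 27.2, 27.1 and 20.7 CPM at 18 h. In WT libraries 1 to 4 it stood at 0.0266, 0.145, 0.832 and 0.281 CPM at 0 h, at 235, 269, 275 and 265 CPM at 4 h, and at 20.7, 16.4, 18.1 and 16.7 CPM at 18 h. Times were fully apart and genotypes overlapped at each time, at 18 h by a labelled-KO and a WT library that both stood near 20.7 CPM. The count ratio of 4 h to 0 h was 675 in labelled KO (95% counting interval 449 to 1060) and 946 in WT (663 to 1400). Unlike Sele, Edn1 stayed up: at 18 h 10.7 ± 1.59% of the 4 h mean was left in labelled KO (SD, n = 3) and 6.89 ± 0.761% in WT (SD, n = 4), or 71.1 times the 0 h level in labelled KO (95% counting interval 47.1 to 113) and 64.7 times in WT (45.1 to 96.4). A single 0 h library weighed on each of these ratios. Without labelled-KO number 4 at 0 h the fitted log2 fold change in labelled KO was 10.1 in place of 9.38 at 4 h and 6.88 in place of 6.14 at 18 h. Without WT number 3 at 0 h that in WT was 10.91 in place of 9.84 at 4 h and 7.06 in place of 5.98 at 18 h.

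Between genotypes at 18 h Edn1 averaged 25.0 ± 3.73 CPM in labelled KO and 18.0 ± 1.99 CPM in WT. The log2 fold change of 0.47 (95% interval 0.047 to 0.902) did not pass in edgeR (Benjamini-Hochberg adjusted p = 0.083), but it passed with DESeq2, with limma-voom and with the 18 h libraries fitted alone. At 0 h and 4 h the log2 fold changes were 0.31 (-1.046 to 1.659) and -0.15 (-0.535 to 0.227), neither of which passed. The 0 h value was -0.43 with labelled-KO number 4 left out. It was 1.38 with WT number 3 left out. The difference between genotypes in the fall from 4 h to 18 h was 0.63 (95% interval 0.055 to 1.202, adjusted p = 0.15 in edgeR), which passed with DESeq2 and with the compared groups fitted alone.

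Ednrb, the gene of the endothelin B receptor (NM_001136061, chr14:103814615-103844508), was present without LPS, as were Icam1 and Vcam1. Unlike the others, it rose only modestly at 4 h and was below its starting level at 18 h. In labelled-KO libraries 2, 3 and 4 it stood at 88.8, 67.4 and 73.0 CPM at 0 h, at 171, 151 and 167 CPM at 4 h, and at 31.6, 35.6 and 44.7 CPM at 18 h. In WT libraries 1 to 4 it stood at 74.3, 77.3, 59.5 and 50.1 CPM at 0 h, at 90.6, 150, 155 and 135 CPM at 4 h, and at 25.1, 41.2, 51.2 and 35.8 CPM at 18 h. The genotypes overlapped at each time, and at 4 h WT number 1 was well below the other 6 libraries. Ednrb rose at 4 h by 1.09 on the log2 scale in labelled KO (adjusted p = 9.2e-05) and by 1.02 in WT (adjusted p = 3.6e-05). At 18 h it was lower than at 0 h with log2 fold changes of -1.03 in labelled KO (adjusted p = 0.00027) and -0.77 in WT (adjusted p = 0.00093), all in edgeR with Benjamini-Hochberg adjustment. At 18 h it was the 1 of these 3 genes below its 0 h level, where 38.5% of all genes were lower in labelled KO and 36.3% in WT, and 34.5% were higher in labelled KO and 34.8% in WT. Between genotypes its log2 fold change was 0.22 at 0 h (95% interval -0.185 to 0.634), 0.30 at 4 h (-0.107 to 0.711; 0.16 without WT number 1) and -0.03 at 18 h (-0.467 to 0.402), with no call. The 3 RefSeq transcripts of Ednrb carried mean counts of 1423.19, 1418.38 and 963.45 over all libraries, and a long noncoding RNA gene, Gm35197, overlaps the gene. Glia and melanocytes are other cells known to express Ednrb, and 5 of 6 of their markers stayed below 1 CPM in every library. The remaining marker, Pmel, moved with Ednrb over time. It stood at 10.4 ± 1.24 CPM in labelled KO and 9.85 ± 1.07 CPM in WT at 4 h, against 1.28 ± 0.513 CPM in labelled KO and 1.4 ± 0.473 CPM in WT at 0 h. At 18 h it was below 0 h with log2 fold changes of -1.08 in labelled KO (adjusted p = 0.013) and -1.35 in WT (adjusted p = 0.00028, both in edgeR). Its part in the course of Ednrb was not tested.

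Set side by side, the 5 genes kept very different shares of their 4 h level at 18 h. Ednrb kept 22.9 ± 4.13% in labelled KO (SD, n = 3) and 29.0 ± 8.22% in WT (SD, n = 4), and Icam1 kept 12.0 ± 0.676% in labelled KO and 14.3 ± 0.432% in WT, while Sele kept under 1% in every library. In these shares the labelled-KO libraries were above the WT libraries for Vcam1 and Edn1 and below them for Icam1, with no overlap. They overlapped them for Sele and Ednrb. Each 18 h library was divided by its group's 4 h mean, so these ranges and SDs hold no spread of the 4 h libraries. The difference between genotypes in the fall, fitted over both times, did not pass for Edn1 (0.63, adjusted p = 0.15 in edgeR) or Icam1 (-0.24, adjusted p = 0.3 in edgeR). Per kilobase of transcript, Icam1 led at 4 h with 1400 CPM per kb in labelled KO and 1180 in WT. Vcam1 followed with 192 CPM per kb in labelled KO and 145 in WT and Edn1 with 110 in labelled KO and 122 in WT. Sele, at 40.5 CPM per kb in labelled KO and 32.6 in WT, and Ednrb, at 39.7 in labelled KO and 32.2 in WT, were lowest. At 0 h the order on the same scale was Icam1 at 25.8 CPM per kb in labelled KO and 25.7 in WT, then Ednrb at 18.6 in labelled KO and 15.9 in WT and Vcam1 at 3.92 in labelled KO and 1.96 in WT, with Edn1 and Sele under 1. This 0 h order turned when all transcripts of a gene were summed, with Ednrb at 24.9 CPM per kb in labelled KO and 21.4 in WT and Icam1 at 13.2 in labelled KO and 13.3 in WT. Such sums hold repeated transcripts, 3 for Ednrb and 1 for Icam1, yet were divided by the length of the kept transcript alone. The summed levels are thus not on a like scale between these genes. Over the 21 libraries, which share the 3 times, log2 levels of Icam1 and Edn1 correlated at r = 0.98 and those of Edn1 and Ednrb at r = 0.38. Within groups these values were 0.33 and -0.17, and the highest was that of Sele and Edn1 at 0.51.

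**Figure D4:**
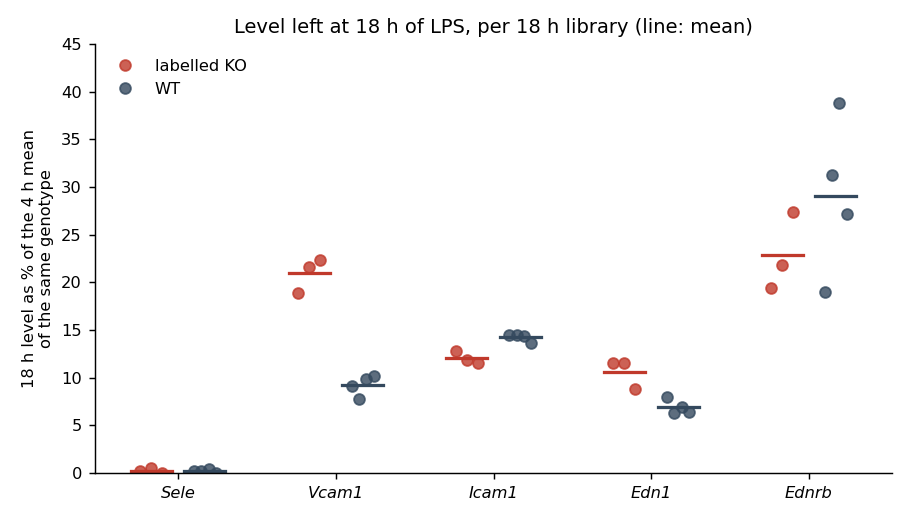
Level at 18 h of LPS as a percentage of the mean at 4 h of the same genotype (vertical axis) for each gene; points are 18 h libraries, lines are means, and labelled KO is left of WT. The labelled-KO libraries kept 19.0 to 22.4% of Vcam1, against 7.73 to 10.1% in the WT libraries, and Sele was near 0 in both.

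Other genes of the same pathways were counted from lists. Between genotypes 3.98% of all genes passed at 0 h, 5.56% at 4 h and 32.2% at 18 h. At 18 h 16.6% of all genes were higher in labelled KO. Of 15 further selectin and selectin ligand genes 13 were tested, and none was higher in labelled KO at 0 h or 18 h while 2 were lower at 0 h and 3 at 18 h; at 4 h 1 was higher and 2 lower. The median log2 fold change at 18 h was 0.051, beside -0.015 over all genes. Fut7, a fucosyltransferase gene, was low at 18 h, at 0.649 ± 0.304 CPM in labelled KO and 1.75 ± 0.358 CPM in WT. Its log2 fold change there was -1.44 (adjusted p = 0.0068 in edgeR). Spn, the sialophorin gene, was also lower in labelled KO at 18 h, at 2.79 ± 0.9 CPM against 5.75 ± 0.946 CPM in WT (log2 fold change -1.06, adjusted p = 0.00082 in edgeR with Benjamini-Hochberg adjustment). Like Sele, Selp, the P-selectin gene, was nearly silent at 0 h and rose at 4 h. It stood at 0.0464 CPM at 0 h and 28.1 ± 3.54 CPM at 4 h in labelled KO. In WT it stood at 0.0427 CPM at 0 h and 29.4 ± 4.25 CPM at 4 h. The 18 h level of Selp is not given here. Its rise passed in both genotypes (log2 fold changes 9.07 in labelled KO and 9.39 in WT, adjusted p = 2.4e-16 and 6.5e-18 in edgeR with Benjamini-Hochberg adjustment).

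Of 15 further immunoglobulin-type adhesion genes 11 were tested, with 3 higher and 1 lower in labelled KO at 18 h (median log2 fold change 0.127), 1 higher at 4 h and 1 lower at 0 h. The 3 higher genes were Ncam1, L1cam and Alcam. Ncam1 stood at 1.54 ± 1.78 CPM in labelled KO and 0.188 ± 0.1 CPM in WT. L1cam stood at 6.24 ± 3.35 CPM in labelled KO and 3.47 ± 1.35 CPM in WT. Alcam, the gene of the adhesion molecule CD166, stood at 262 ± 24.2 CPM in labelled KO and 158 ± 8.12 CPM in WT at 18 h (log2 fold change 0.73, adjusted p = 4.2e-05 in edgeR with Benjamini-Hochberg adjustment). Of 8 tested genes of integrins that bind ICAM-1 or VCAM-1, none passed at 0 h, 1 was higher and 2 were lower at 4 h, and 1 was higher at 18 h (median -0.024). Itgax, the CD11c gene, was higher in labelled KO at 18 h at 12.6 ± 0.638 CPM against 6.19 ± 1.28 CPM in WT (1.01, adjusted p = 0.0035 in edgeR), and Itga4, the subunit of the VCAM-1 receptor VLA-4, rose with LPS at 4 h in both genotypes (2.41 in labelled KO and 2.44 in WT). Of 10 genes of cytoplasmic partners and shedding proteases, 4 were higher in labelled KO at 18 h and none lower (median 0.148). Among them were Actn1, an actinin gene, at 31.6 ± 9.88 CPM in labelled KO against 18.6 ± 2.72 CPM in WT, and the membrane linker gene Ezr, at 124 ± 18.1 CPM in labelled KO against 77.6 ± 7.5 CPM in WT. In that list 1 was lower at 0 h and at 4 h.

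Of 12 further endothelin genes only 3 passed the filter on low counts. Edn2, Edn3, Kel and Cma1 had no count in any of the 21 libraries, where 3 counts would stand for 0.101 to 0.244 CPM. Ednra, the gene of the A receptor, stayed at or below 0.326 CPM, and Ece2 at or below 0.213 CPM. Ece1, which encodes the main endothelin-converting enzyme, was measured throughout at 28.1 to 75.3 CPM and did not pass between genotypes. Furin was higher in labelled KO at 4 h, at 411 ± 47.9 CPM against 282 ± 25.5 CPM in WT (log2 fold change 0.54, adjusted p = 0.002), and at 18 h, at 97.1 ± 13.6 CPM against 59.7 ± 3.73 CPM in WT (0.70, adjusted p = 3.3e-05), both in edgeR with Benjamini-Hochberg adjustment. Of 19 other vasoactive genes 8 were tested, and 4 were higher and none lower in labelled KO at 18 h (median 0.768), with 2 higher at 4 h, and 1 higher and 2 lower at 0 h. Nos2, the inducible nitric oxide synthase, led them at 18 h with 723 ± 174 CPM in labelled KO against 142 ± 33.7 CPM in WT (2.35, adjusted p = 3.4e-06 in edgeR).

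All 13 genes of NF-kB subunits and inhibitors rose at 4 h in both genotypes, where 33.5% of all genes were higher in labelled KO and 35.1% in WT, with median log2 fold changes of 3.646 in labelled KO and 3.343 in WT beside -0.142 in labelled KO and -0.174 in WT over all genes. Between genotypes 8 of 13 were higher in labelled KO at 18 h, beside 16.6% of all genes, and none was lower (median 0.254), against 1 higher at 4 h and 1 lower at 0 h. Tnfaip3, the gene of the NF-kB inhibitor A20, stood at 341 ± 14.1 CPM in labelled KO and 201 ± 10.8 CPM in WT at 18 h (0.77, adjusted p = 1.3e-06 in edgeR with Benjamini-Hochberg adjustment). The 3 Nr4a genes were all higher in labelled KO at 18 h.

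The genes whose log2 levels followed each of the 5 most closely over the 21 libraries, of 9469 searched, differed from one to the next. For Vcam1 these included Cd200 (Pearson r = 0.992), a ligand of an inhibitory receptor on myeloid cells, and Spsb1 (0.991). At 18 h Cd200 stood at 31.8 CPM in labelled KO against 8.61 CPM in WT. For Icam1 they were Nfkb2 (0.997), an NF-kB subunit gene, Dyrk2 (0.997), a kinase gene, and Birc3 (0.996), an inhibitor of cell death. For Edn1 they were Il12b (0.995), a subunit of interleukin 12 and 23, Snx10 (0.992), a sorting nexin, and Zdhhc5 (0.991), a palmitoyltransferase gene. For Sele they were Wdr59 (0.992), Kpna3 (0.99) and Atad1 (0.99), none of which was near 0 without LPS, and for Ednrb Map7 (0.971), Ptafr (0.962), the platelet-activating factor receptor gene, and Fchsd2 (0.959). These r describe libraries that share 3 times of LPS, and by rank correlation at most 1 of the 3 closest genes for each stayed the same.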

How the data were processed

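Messenger RNA was sequenced in 21 libraries, made with the KAPA mRNA HyperPrep kit from RNA of RNeasy columns, per the labels' protocols. The submitters' processing notes name CASAVA 1.8.2, HISAT2 2.1.0 and mm10. How reads were counted, with or without strand, and how shared reads were treated is not stated there, so genes that overlap others are uncertain. The authors' deposited values are estimated counts for each RefSeq transcript, unscaled, with steps of 0.5. Of 42361 transcript IDs, 42203 were named through RefSeq on GRCm38.p6 and 65 through GENCODE; 93 had no name (0.232 to 2.229% of counts) and were left out. The transcript of highest mean stood for each gene, and counts were rounded. No libraries of a group were alike within sampling noise. In that check, a chi-square per degree of freedom between 2 libraries, WT number 1 lay furthest from its group at 0 h and 4 h. Its pairs had 28.8 to 33.7 at 0 h, against 8.12 to 13.9 for the other WT pairs. At 4 h they had 43.7 to 69.2, against 6.99 to 13.2. At 18 h they had 9.99 to 13.6, against 6.74 to 15.7.

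A single fit with edgeR 4.0.16 (R 4.3.3, quasi-likelihood test) held the 6 groups, with TMM factors, edgeR's default filter and Benjamini-Hochberg adjustment over 12529 genes at a threshold of 0.05; it was tested on simulated counts. Groups came from sample titles. Alternatives were DESeq2 1.42.0, limma-voom (limma 3.58.1), other scalings and filters, summed transcripts, only the compared groups, the replicate number as a block, stromal markers as a covariate, and each library left out. The genes, the 14 gene lists and the tests were chosen with earlier results of these data known. Genes named between genotypes were drawn from the 3 largest changes in each direction of a list, and over time from the 2 largest, among those that passed with a mean of at least 1 CPM in the higher group. Other marker genes were named after their values were seen. Likeness was Pearson's r of log2 CPM (prior count 2) among genes reaching 5 CPM in a group. A gene that this rule names is not reported here. Endothelin genes that did not pass were named after their values were seen. Same-numbered WT libraries at 0 h and 4 h deviated together (r of 0.23 to 0.32), above the 0.1 taken to mark pairs. At 18 h 1 of 4 WT pairs with each other time was above it. In labelled KO 2 of 3 pairs were above it between each pair of times, with r of 0.1 to 0.5 for 4 h and 18 h. The values given come from the fit without the block, and the block changed no call among the 5 genes. Same-numbered labelled-KO and WT libraries of a time had r of -0.34 to 0.16, with 1 of 3 pairs above 0.1 at 18 h. Python 3.11.15 and matplotlib 3.10.9 drew the figures.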

Additional observations from a re-analysis of the deposited data

Results flagged for a closer look

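A test for a single distant library (Dixon's, at the 95% level, critical value 0.829) was run on 18 groups of 4 WT libraries, the 5 genes and Nr4a1 at 3 times, and 3 groups stood out; chance gives about 1 in 20. Vcam1 in WT number 1 at 4 h was the lowest of its group at 280 CPM, with a gap of 0.854 of the group's range. In the same library Nr4a1 was the highest of its group at 7.25 CPM (0.856). Icam1 in WT number 4 at 18 h was the lowest of its group at 407 CPM (0.896), in a group whose other libraries lay at 431 to 434 CPM.

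The fall of Vcam1 from 4 h to 18 h of LPS differed between genotypes by 1.19 on the log2 scale (adjusted p = 0.013 in edgeR with Benjamini-Hochberg adjustment). This contrast was added after the values were seen. Without each group's library of highest stromal mean the difference was 1.08 and did not pass (adjusted p = 0.13 in edgeR). All 3 labelled-KO libraries kept 19.0 to 22.4% of the 4 h mean and all 4 WT libraries 7.73 to 10.1%. WT number 1 at 4 h lowers that mean in WT; over the fits that left out 1 library the difference was 1.10 to 1.39.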

How the results depend on the processing

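For the 5 genes 60 fold changes were computed under 1239 alternative values; 1201 kept their direction and their side of the threshold, 10 lost the call, 6 gained it and 22 changed sign. The tally includes the large changes over time, those of Sele and Edn1 among them, which are given with no test. Of the 10, 5 belong to Sele at 18 h against 0 h in labelled KO, where counts were few. The 22 belong to 7 differences, and 0 of them passed in either fit. Edn1 at 0 h turned to -0.64 without the highest stromal libraries (-0.43 to 1.38 without 1 library). The difference between genotypes in its response turned at 4 h to 0.51 without the highest stromal libraries (-1.54 to 0.26 without 1 library) and at 18 h to -0.16 with limma-voom (-0.91 to 0.90 without 1 library). Ednrb at 18 h turned to 0.01 with DESeq2 and with limma-voom and 0.02 with median-of-ratios factors (-0.20 to 0.13 without 1 library), and its difference in response at 4 h ran from -0.07 to 0.19 without 1 library. Sele at 18 h ran from -0.70 to 1.14 without 1 library, and its difference in the fall from 4 h to 18 h turned to -0.13 with limma-voom (-1.01 to 0.83 without 1 library). Vcam1 at 18 h passed in all 19 alternatives. Vcam1 at 0 h had 0.96 with the stromal covariate (adjusted p = 0.054 by edgeR) and 0.84 to 1.20 over fits without 1 library. Its difference between genotypes in the fall from 4 h to 18 h was 1.08 without the libraries of highest stromal mean (adjusted p = 0.13 by edgeR). Edn1 at 18 h passed with DESeq2 (0.52), limma-voom (0.47) and the compared groups alone (0.48), and its difference in that fall with DESeq2 (0.66) and the compared groups alone (0.62). The cause of these changes was not tested.

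Counts of called genes moved over 1.5 times in some fits. Between genotypes they were 499 at 0 h (270 without the highest stromal libraries, 314 to 498 without 1 library), 697 at 4 h (272 with the compared groups alone, 394 with the covariate, 216 without the highest stromal libraries, 275 to 681 without 1 library) and 4034 at 18 h (2407 with the covariate, 2526 without the highest stromal libraries, 2674 to 3842 without 1 library). The differences in response gave 100 at 4 h (197 with DESeq2, 22 without the highest stromal libraries, 62 to 128 without 1 library), 2202 at 18 h (1103 without the highest stromal libraries, 1528 to 2201 without 1 library) and 1358 from 4 h to 18 h (587 and 871 to 1457). Fits with fewer libraries have less power.

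With the replicate number as a block, Vcam1 was 0.88 at 0 h, 0.31 at 4 h and 1.44 at 18 h, and no call among the 5 genes changed. Summed transcripts, whose totals hold repeated transcripts, lowered levels per kilobase, for Icam1 at 4 h to 717 in labelled KO and 610 in WT, and raised those of Ednrb at 4 h to 54.8 in labelled KO and 45.4 in WT. Depth limits Sele at 0 h and 18 h and Edn1 at 0 h.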
